A study of Drosophila melanogaster with 9 samples.

Results

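The eukaryotic cytoplasmic ribosome is built from ribosomal RNA and a fixed set of ribosomal proteins, named RpS in the small subunit, which reads the mRNA, and RpL in the large subunit, which joins amino acids. Each ribosome is thought to need the proteins in matched amounts, and in Drosophila the loss of a single copy of many of these genes gives the Minute phenotype of slow development and short bristles. Nurse cells of the ovary make ribosomes in bulk for the egg, and several fly ribosomal proteins are encoded by a pair of paralogous genes, of which RpS5b and RpS19b are known for germline expression. Ribosomal protein genes and their paralogs were taken by symbol (RpL or RpS followed by a digit or by P). The rule found 92 of the 17199 genes of the authors' deposited table, 38 of them RpS and 54 RpL.

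Total RNA from fly ovaries, depleted of ribosomal RNA, was sequenced in 9 libraries, 3 for each of 3 lines. The M6stop line carries an edited Pcif1 allele whose frameshift ends at an early stop codon. In the F9ΔNLS line the nuclear localization signal of Pcif1 was removed in frame, leaving a protein of 829 amino acids. Both alleles were made by CRISPR-Cas9 in w1118 flies and then backcrossed to the line that serves as control, BG02557, which has a P-element of the GT1 type in the first intron of Pcif1. The control is therefore not a wild-type stock, and each mutant line descends from a single selected allele. Per line, 3 pairs of ovaries were collected, and the age of the flies is not given in the sources used here.

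All values are from the authors' deposited table, which gives for each gene a mean normalized count over libraries, a log2 fold change of each mutant line over BG02557 and an adjusted p. Columns of single libraries could not be tied to lines, so no value per library or error of a fold change is given. The adjusted p is the only test result used here that takes the spread between libraries into account. An adjusted p was listed for 10662 genes, and the words rose and fell are used below for values under 0.05. Whether the fold changes were shrunk toward 0 is not stated. Genes with means near 0 had values near 0, such as RpL22-like (mean 0.945, -0.003 in M6stop and 0.008 in F9ΔNLS), according to the authors' deposited table. A small fold change at a low mean therefore does not show an unchanged level. The mutant lines were compared with the same control libraries, so the sets of fold changes are not independent of each other. Pcif1 (listed as CG11399) fell by 2.51 in M6stop ovaries (DESeq2 adjusted p listed as 0) and showed a log2 fold change of 0.02 in F9ΔNLS ovaries (DESeq2 adjusted p = 0.83) according to the authors' deposited table. The ovarian germline genes osk and vas had means of 35691 and 4170 normalized counts according to the authors' deposited table.

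Ribosomal protein mRNAs were among the most abundant of the ovary. Of the 291 tested genes counted at 10000 or more on average according to the authors' deposited table, 77 (26.5%) were ribosomal protein genes. The 92 genes made up 10.8% of the normalized counts of protein-coding genes and 10.5% of those of all genes other than ribosomal RNA according to the authors' deposited table. Ribosomal RNA genes still held 64.3% of all normalized counts after depletion, so the share of the 92 in the whole was 3.74% according to the authors' deposited table. Of the 92, 87 had an adjusted p and 5 did not. The 87 had a median of 21287 normalized counts, against 570 for all tested genes, according to the authors' deposited table.

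Levels were compared between genes per kb of exon, taken over all annotated transcripts, so a gene with long alternative exons reads lower. The 78 genes that are neither the second gene of a paralog pair nor a "-like" gene had a median of 24955 normalized counts per kb computed from the authors' deposited table, and 70 of them lay within a factor of 2 of that median. The median of tested protein-coding genes was 324 normalized counts per kb on the same scale from the authors' deposited table. RpL41, which encodes a peptide of 25 residues, stood highest with 157509 normalized counts per kb from the authors' deposited table. RpLP2, a protein of the lateral stalk that binds translation factors, came next with 50688 normalized counts per kb from the authors' deposited table. RpL38 had the lowest level of the 78, 6507 normalized counts per kb from the authors' deposited table. RpL28 (7271) and RpS21 (8572) had the next lowest normalized counts per kb from the authors' deposited table. By mean normalized count, without regard to length, RpL3 (51948), RpL41 (50403), RpL4 (49754), RpL5 (41095) and RpS4 (40850) were the highest according to the authors' deposited table.

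**Figure D1:**
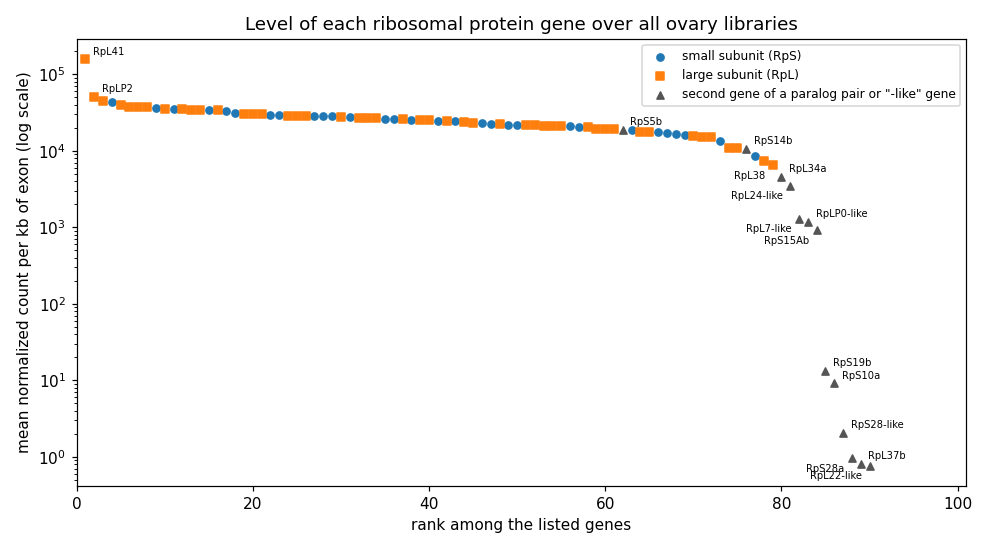
Mean normalized count per kb of exon (log scale) for 90 ribosomal protein genes above 0, ranked from highest to lowest, from the authors' deposited table over all libraries. Most genes lie on a slowly falling line around 24955, RpL41 stands above it at 157509, and the paralogs run from 18699 for RpS5b down to below 1.

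The paralogs ranged from the level of the other genes down to 0. RpS5b had 18699 normalized counts per kb from the authors' deposited table, within the range of the 78. RpS14b, a copy that follows RpS14a directly on the X chromosome and encodes a protein of the same length (151 residues), made up 36.4% of the pair's sum per kb from the authors' deposited table. RpL34a made up 29.3% of its sum with RpL34b, and RpS15Ab 4.23% of its sum with RpS15Aa, per kb from the authors' deposited table. Reads of near-identical copies such as RpS14a and RpS14b can be split between them by the estimation, so these shares are uncertain. RpL24-like, RpL7-like and RpLP0-like, whose yeast relatives are ribosome assembly factors and not parts of the finished ribosome, had means of 2711, 2319 and 1124 normalized counts according to the authors' deposited table.

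Several paralogs were close to the lower end of the measured range. RpS19b had a mean of 8.92 normalized counts, against 20694 for RpS19a, and RpS10a had 5.52, against 21191 for RpS10b, according to the authors' deposited table. The 5 genes with no adjusted p were RpL22-like (0.945), RpS28-like (0.751), RpL37b (0.343), RpS28a (0.292) and RpL10Aa (listed at 0), with mean normalized counts from the authors' deposited table. Their partners RpL22, RpS28b, RpL37a and RpL10Ab had means between 16355 and 25449 normalized counts according to the authors' deposited table. No change between lines can be read for these 5.

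In M6stop ovaries a single ribosomal protein gene passed the test, RpS5b. Of the 87 tested, 0 rose and 1 fell (1.15%), beside 5.52% of all tested genes called in either direction, 3.48% that rose and 2.04% that fell, from the authors' deposited table. RpS5b (FBgn0038277, 3R from 14900432 to 14901563 on the minus strand, BDGP6), which encodes a small-subunit protein at the mRNA exit side, fell by 0.28 on the log2 scale, a level 0.821 times that of the control (DESeq2 adjusted p = 5.6e-04), according to the authors' deposited table. RpS5b ranked 8 by adjusted p among the 291 tested genes counted at 10000 or more on average according to the authors' deposited table.

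The other 86 tested genes had log2 fold changes between -0.10 and 0.13 in M6stop according to the authors' deposited table. The ends of that range were RpL7 (-0.10, DESeq2 adjusted p = 0.35) and RpL31 (0.13, DESeq2 adjusted p = 0.39), both of the large subunit, according to the authors' deposited table. Next at the lower end stood RpL34b (-0.09), and next at the upper end RpL10 (0.08) and RpL38 (0.07), none of them called, according to the authors' deposited table. Apart from small nucleolar or nuclear RNA genes lying within them, 30 of the 92 genes have exons that overlap those of another annotated gene. In 25 of them the overlap is on the other strand, RpL31, RpL28 and RpS9 included. Whether strand was used in counting is not stated, so reads of such overlaps are uncertain. The log2 fold change was under 0.1 in size for 84 of the 87 (96.6%), beside 84.7% of all tested genes, and the median was -0.013, beside -0.001 for all tested genes, according to the authors' deposited table. Of the 87, 33 were above 0 and 54 below according to the authors' deposited table.

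In F9ΔNLS ovaries RpS5b and RpL10Ab fell. Of the 87 tested genes 0 rose and 2 fell (2.3%), beside 23.4% of all tested genes called in either direction, 11.6% that rose and 11.9% that fell, from the authors' deposited table. RpS5b fell by 0.34 on the log2 scale, a level 0.792 times that of the control (DESeq2 adjusted p = 2.5e-05), according to the authors' deposited table.

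RpL10Ab (FBgn0036213, 3L from 11822851 to 11824211 on the plus strand, BDGP6) encodes the protein of the L1 stalk, which moves with the spent tRNA. It fell by 0.20 in F9ΔNLS, a level 0.873 times that of the control, with a DESeq2 adjusted p of 0.048 that lies close to the threshold, according to the authors' deposited table. In M6stop its log2 fold change was -0.08 (DESeq2 adjusted p = 0.58) according to the authors' deposited table. Its end overlaps an exon of CG32095 on the other strand, and CG32095 fell by 0.38 in F9ΔNLS (DESeq2 adjusted p = 0.037) according to the authors' deposited table. The overlap spans 5 bases of an exon length of 960, and CG32095 had a mean of 598.3 normalized counts, against 25449 for RpL10Ab, according to the authors' deposited table. The small nucleolar RNA gene in its intron, snoRNA:Psi18S-920, showed a log2 fold change of 0.09 in F9ΔNLS (DESeq2 adjusted p = 0.63) according to the authors' deposited table.

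The other 85 tested genes had log2 fold changes between -0.18 and 0.25 in F9ΔNLS according to the authors' deposited table. RpL38, a large-subunit gene in pericentromeric heterochromatin, had the highest value (0.25, DESeq2 adjusted p = 0.075), followed by RpLP0-like (0.22, DESeq2 adjusted p = 0.078) and RpL28 (0.19, DESeq2 adjusted p = 0.21), according to the authors' deposited table. At the lower end stood the small-subunit genes RpS9 (-0.18, DESeq2 adjusted p = 0.059), RpS14a (-0.16, DESeq2 adjusted p = 0.072) and RpS14b (-0.16, DESeq2 adjusted p = 0.14) according to the authors' deposited table. None of these passed the test, which does not show that their levels were equal in F9ΔNLS and control ovaries. The log2 fold change was under 0.1 in size for 66 of the 87 (75.9%), beside 48% of all tested genes, according to the authors' deposited table. The median was 0.012, beside 0.004 for all tested genes, with 50 genes above 0 and 37 below, according to the authors' deposited table.

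**Figure D2:**
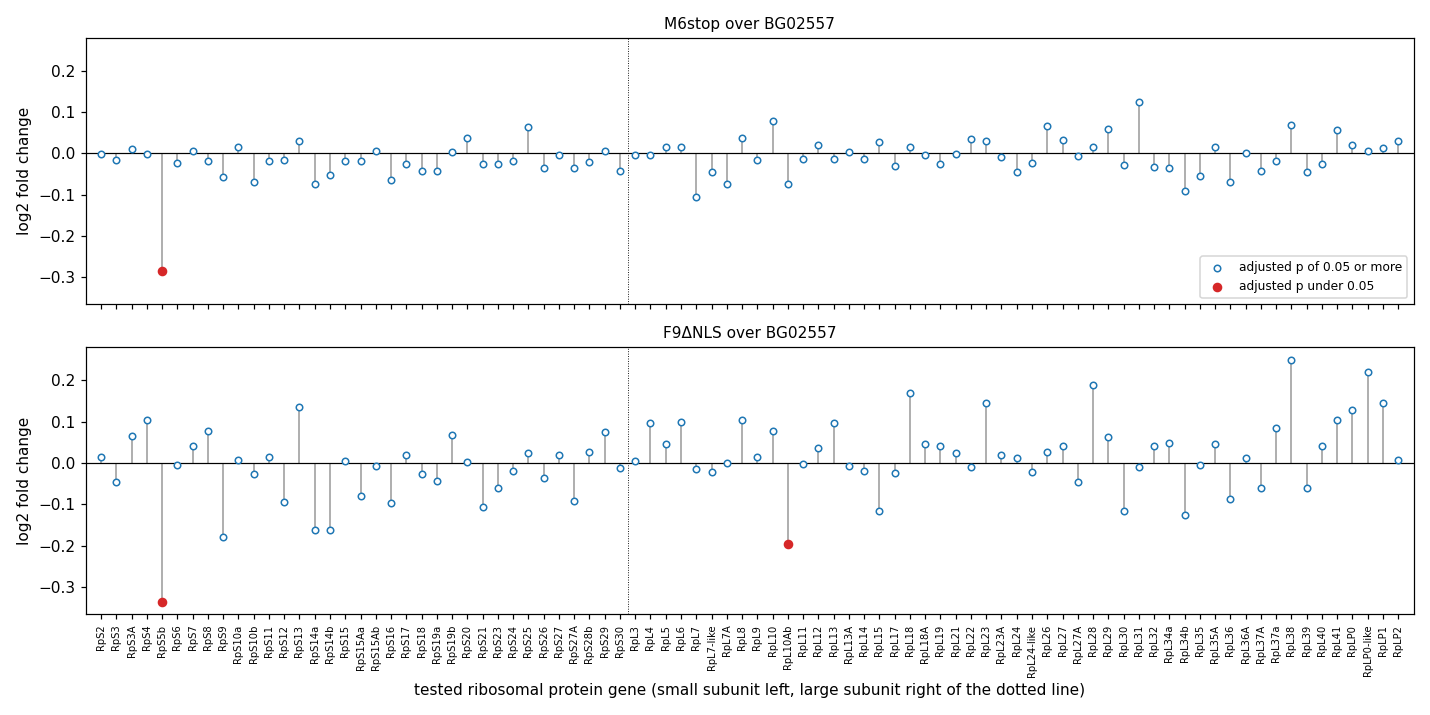
Log2 fold change over BG02557 of 86 of the 87 tested ribosomal protein genes in M6stop (upper panel) and F9ΔNLS (lower panel), from the authors' deposited table, with filled red points for an adjusted p under 0.05. RpS5b is the lowest point in both panels (-0.28 in M6stop and -0.34 in F9ΔNLS), and RpL10Ab is the other filled point, at -0.20 in F9ΔNLS.

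Highly counted genes are measured with more precision, so the ribosomal protein genes were also set beside the 214 other tested genes counted at 10000 or more on average. Of those, 20 rose and 6 fell in M6stop (12.1% called, 2.8% downward), and 62 rose and 26 fell in F9ΔNLS (41.1% called, 12.1% downward) according to the authors' deposited table. The smallest called log2 fold change among them was 0.16 in size in M6stop and 0.11 in F9ΔNLS according to the authors' deposited table. Of the 77 ribosomal protein genes at that level, 0 rose and 1 fell in M6stop, and 0 rose and 2 fell in F9ΔNLS, according to the authors' deposited table. Their median size of log2 fold change was 0.03 in M6stop and 0.04 in F9ΔNLS, beside 0.04 and 0.16 for the other 214, according to the authors' deposited table. No test of the difference between these groups of genes was made, and ribosomal protein genes are not independent of each other.

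Medians were near 0 in both subunits. Small-subunit genes, 36 tested, had a median log2 fold change of -0.019 in M6stop and -0.007 in F9ΔNLS, and large-subunit genes, 51 tested, had medians of -0.004 and 0.025, according to the authors' deposited table. Some core parts with named duties are given next, chosen after their values were seen. None of these was called in either line, which is no test of core parts as a group. RpL10Ab of the L1 stalk, not among them, fell in F9ΔNLS (-0.20), as given above. RpS6, the substrate of S6 kinase, had log2 fold changes of -0.02 in M6stop and -0.01 in F9ΔNLS according to the authors' deposited table. RpL5 (0.02 and 0.05) and RpL11 (-0.01 and -0.003), which carry the 5S RNA into the large subunit, had these log2 fold changes in M6stop and F9ΔNLS according to the authors' deposited table. The stalk proteins RpLP0 (0.02 and 0.13), RpLP1 (0.01 and 0.14) and RpLP2 (0.03 and 0.01) had these log2 fold changes in M6stop and F9ΔNLS, none called, according to the authors' deposited table. The ubiquitin fusion genes RpS27A (-0.04 and -0.09) and RpL40 (-0.03 and 0.04) were not called in M6stop or F9ΔNLS according to the authors' deposited table. The ribosome-bound proteins that carry other names, sta (RpSA, 0.03 and 0.01) and Rack1 (0.01 and -0.02), were likewise not called in M6stop or F9ΔNLS according to the authors' deposited table.

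The pairs RpS10, RpS14, RpS15A, RpS19, RpL7, RpL24, RpL34 and RpLP0, all with both genes tested, had 0 calls in M6stop and in F9ΔNLS, beside 5.52% and 23.4% of all tested genes called, according to the authors' deposited table. RpS5b, which fell in both lines, is not among these pairs, so the 0 calls do not hold for all paralogs. RpS14a and RpS14b had almost the same values in F9ΔNLS (-0.16 each), and in M6stop they had -0.07 and -0.05, according to the authors' deposited table. As reads of these copies can be split between them by the estimation, their fold changes may not be separate measurements. RpL34a had log2 fold changes of -0.04 in M6stop and 0.05 in F9ΔNLS, and RpL34b had -0.09 and -0.13, according to the authors' deposited table. RpS15Ab had log2 fold changes of 0.01 in M6stop and -0.01 in F9ΔNLS, and RpS15Aa had -0.02 and -0.08, according to the authors' deposited table. RpL24-like had -0.02 in each line and RpL7-like -0.05 in M6stop and -0.02 in F9ΔNLS according to the authors' deposited table. RpS19b, at its low mean, had log2 fold changes of 0.003 in M6stop and 0.07 in F9ΔNLS, and RpS10a had 0.02 and 0.01, according to the authors' deposited table. Within a pair, the fold changes were not tested against each other.

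**Figure D3:**
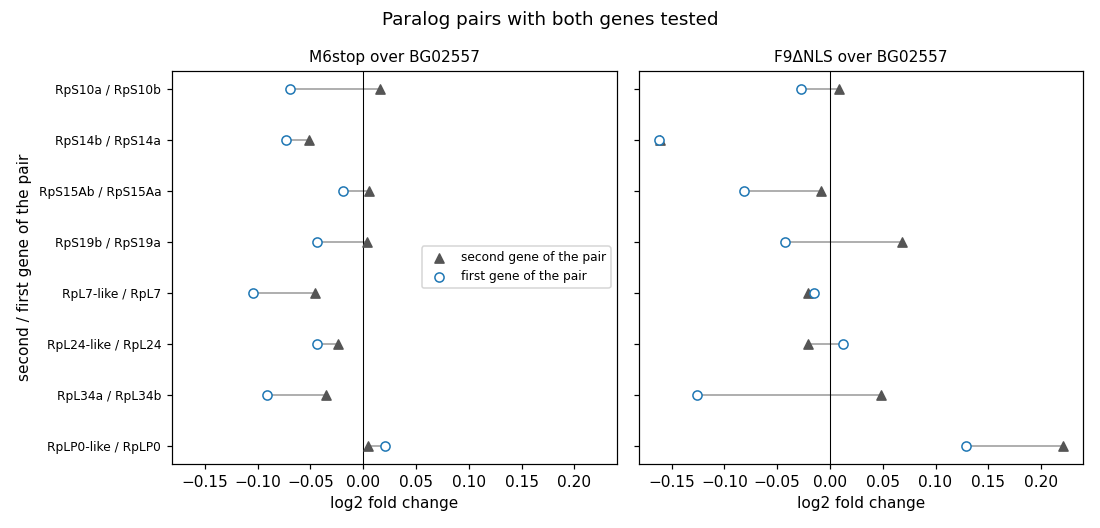
Log2 fold change over BG02557 of both genes of each of 8 paralog pairs with both genes tested, in M6stop (left) and F9ΔNLS (right), from the authors' deposited table. Triangles are the second gene of a pair and circles the first. RpS5b, which fell in both lines, is not shown. No gene of these pairs had an adjusted p under 0.05, and RpLP0-like (0.22) lies highest and RpS14a and RpS14b (-0.16 each) lowest in F9ΔNLS.

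RpS5b is transcribed in the germline, and germline markers were read beside it. Of 12 germline markers, 0 were called in M6stop, and 5 rose and 1 fell in F9ΔNLS, beside 5.52% of all tested genes called in M6stop and 23.4% in F9ΔNLS, according to the authors' deposited table. In F9ΔNLS aub (0.44), orb (0.40), osk (0.36), grk (0.40) and ovo (0.19) rose, and nos fell by 0.60, according to the authors' deposited table. vas, a helicase of all germline cells, had log2 fold changes of -0.05 in M6stop and 0.03 in F9ΔNLS and was not called according to the authors' deposited table. Of 11 follicle cell markers 2 rose and 1 fell in M6stop (27.3% called), and 5 rose and 2 fell in F9ΔNLS (63.6% called), beside the same shares of all tested genes, according to the authors' deposited table. In bulk tissue, fewer cells of a type and less RNA per cell cannot be told apart, and the part of cell composition in the RpS5b values was not tested. The tested neighbours of RpS5b on 3R were not called in M6stop, with log2 fold changes between -0.06 (Nup93-2) and 0.25 (VhaPPA1-1, DESeq2 adjusted p = 0.066) for the nearest 2 on each side, according to the authors' deposited table. In F9ΔNLS CG3817 rose by 0.43 (DESeq2 adjusted p = 0.0078), and the other 3 of these neighbours were not called according to the authors' deposited table.

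Other genes of protein synthesis moved upward in F9ΔNLS ovaries. Of 24 tested genes listed for ribosome assembly, 20 rose and 0 fell in F9ΔNLS, with a list median of 0.333, beside 11.6% of all tested genes that rose and a median of 0.004, according to the authors' deposited table. Fib, the methyltransferase of box C/D ribonucleoproteins, rose by 0.66 (DESeq2 adjusted p = 3.2e-10) and the nucleolar chaperone gene Nopp140 by 0.63 (DESeq2 adjusted p = 7.7e-14) according to the authors' deposited table. Tsr1, a factor of small-subunit maturation, and the nucleolar helicase gene pit each rose by 0.47 in F9ΔNLS according to the authors' deposited table. In M6stop, 0 of the 24 were called, and their median was 0.020, according to the authors' deposited table. Unadjusted p-values are not among the columns used.

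Every called translation factor gene of the lists rose in F9ΔNLS. Of 35 tested initiation factor genes 11 rose (31.4%) and 0 fell, with a median of 0.140, according to the authors' deposited table. Of all tested genes 11.6% rose and 11.9% fell in F9ΔNLS according to the authors' deposited table. The 11 included eIF4G1, the scaffold of the cap-binding complex (0.55), eIF4H1 (0.50), eIF5B, which joins the subunits (0.43), and eIF5 (0.33) according to the authors' deposited table. In M6stop 1 of the 35 rose (2.86%) and 0 fell, beside 3.48% of all tested genes that rose, according to the authors' deposited table. It was eIF5 (0.22, DESeq2 adjusted p = 0.022). Of 11 elongation and termination genes 6 rose (54.5%) and 0 fell in F9ΔNLS, again beside 11.6% and 11.9% of all tested genes, according to the authors' deposited table. Among the 6 were the release factor gene eRF3 (0.34), eEF1delta (0.34) and eEF2, the translocase (0.25), according to the authors' deposited table. Median mean normalized counts were 4673 for initiation, 9700 for elongation and termination and 2666 for ribosome assembly genes, against 570 for all tested genes. Of the 214 highly counted genes other than ribosomal protein genes, 62 rose and 26 fell in F9ΔNLS. The part of count level in the shares of these lists that rose was not tested. eEF1alpha2 rose by 1.41 in F9ΔNLS and by 1.29 in M6stop at a mean of 50.8 normalized counts, while eEF1alpha1, with a mean of 230321, rose by 0.20 in F9ΔNLS and was not called in M6stop (0.13), according to the authors' deposited table. Of the 11 muscle markers 4 rose in M6stop and 10 in F9ΔNLS, with 0 falls, beside 3.48% and 11.6% of all tested genes that rose, according to the authors' deposited table, and their part in the values of translation genes was not tested. Of the 8 fat body markers 3 rose in M6stop and 2 in F9ΔNLS, with 0 falls, beside the same shares of all tested genes, according to the authors' deposited table.

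Genes of the mitochondrial ribosome, which translates the mitochondrial genome, rose in shares close to that of all tested genes in F9ΔNLS and below it in M6stop, with no test of either difference. Of 73 tested mitochondrial ribosomal protein genes, 10 rose and 0 fell in F9ΔNLS, with a median of 0.099, and 1 rose and 0 fell in M6stop, with a median of 0.022, according to the authors' deposited table. The genes that rose were 13.7% of the list in F9ΔNLS and 1.37% in M6stop, beside 11.6% and 3.48% of all tested genes, according to the authors' deposited table. Of all tested genes 11.9% fell in F9ΔNLS and 2.04% in M6stop, and their medians were 0.004 and -0.001. Values above 0 made up 82.2% of the list in F9ΔNLS and 75.3% in M6stop, beside 51.4% and 49.1% of all tested genes. mRpL1 rose in both lines (0.21 in M6stop and 0.27 in F9ΔNLS), and mRpL47 (0.39) and mRpS9 (0.21) rose in F9ΔNLS according to the authors' deposited table. For these lists, as for the cytoplasmic ribosomal proteins, the counts stand side by side and the difference between lists was not tested.

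**Figure D4:**
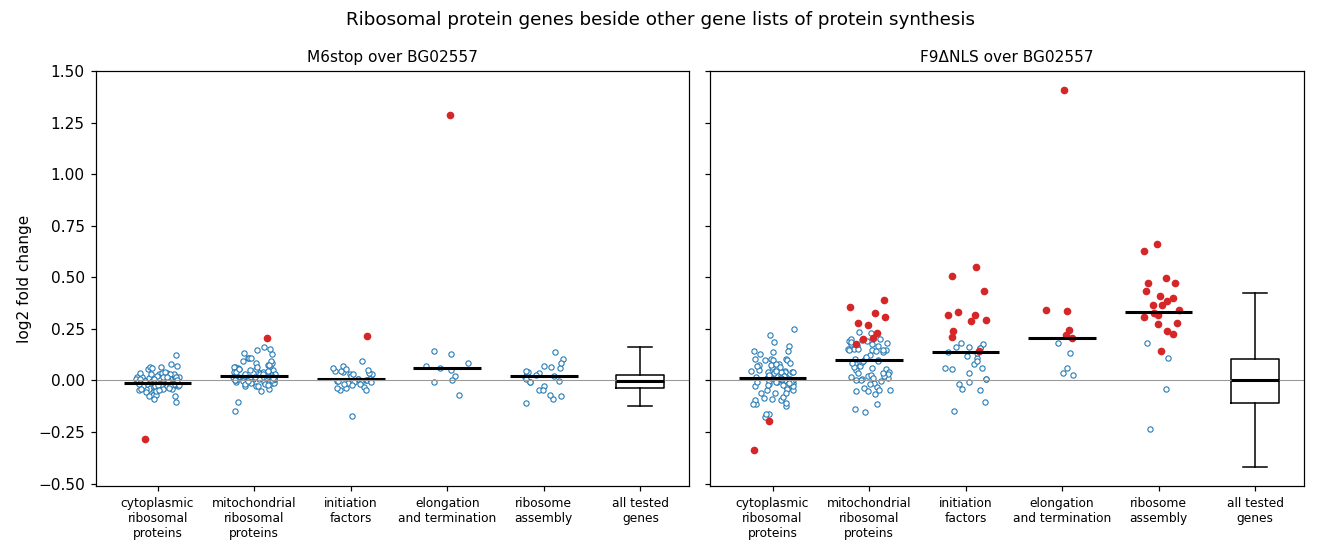
Log2 fold change over BG02557 of the tested genes of each list in M6stop (left) and F9ΔNLS (right), from the authors' deposited table. Red points have an adjusted p under 0.05, black bars are list medians, and the box shows all 10662 tested genes with whiskers at the 5th and 95th percentiles. In F9ΔNLS the median was 0.012 for cytoplasmic ribosomal proteins and 0.333 for ribosome assembly genes.

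A list of genes that act on ribosomal protein genes, their mRNAs or growth was read beside them. Of 14 such genes 5 rose and 2 fell in F9ΔNLS, and 1 rose and 1 fell in M6stop, beside 23.4% and 5.52% of all tested genes called, according to the authors' deposited table. Myc, a transcription factor that promotes growth and ribosome production, rose by 0.45 in F9ΔNLS (DESeq2 adjusted p = 5.3e-08) and by 0.27 in M6stop (DESeq2 adjusted p = 0.0032) according to the authors' deposited table. In F9ΔNLS larp (0.46), whose human relative binds the 5′ ends of ribosomal protein mRNAs, S6k (0.35), Trf2 (0.30), which is needed at the core promoters of these genes, and La (0.24) rose, and M1BP (-0.31) and Dref (-0.20), a pair of promoter-binding factors, fell according to the authors' deposited table. REPTOR, a transcription factor held back by the growth kinase Tor, fell by 0.20 in M6stop according to the authors' deposited table. Xrp1, which is induced in cells short of a ribosomal protein, had log2 fold changes of 0.06 in M6stop (DESeq2 adjusted p = 0.57) and 0.19 in F9ΔNLS (DESeq2 adjusted p = 0.30) according to the authors' deposited table.

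The genes lie on all major chromosome arms and host many small RNAs. Of the 87 tested genes 14 are on X, 18 on 2L, 19 on 2R, 14 on 3L, 21 on 3R and 1, RpS3A, on chromosome 4. Genes on X had a median log2 fold change of -0.036 in M6stop and -0.017 in F9ΔNLS, and those on 3R had -0.003 and 0.025, according to the authors' deposited table. The medians in M6stop and F9ΔNLS were -0.020 and 0.012 on 2L, -0.004 and 0.007 on 2R, and 0.006 and 0.023 on 3L, from the same source. Medians of all tested genes of each arm are not given here, so no effect of an arm can be read from these values. The encoded proteins are short, with a median of 156 residues, against 455 for tested protein-coding genes. In 28 of the 87 (32.2%), a small nucleolar or nuclear RNA gene lies inside the span on the same strand, against 0.904% of the 9841 tested protein-coding genes. Of the 51 nested small RNA genes with an adjusted p, 0 were called in M6stop and 1 fell in F9ΔNLS, beside 5.52% and 23.4% of all tested genes, according to the authors' deposited table. Of the 125 other tested snoRNA genes 0 rose and 1 fell in M6stop, and 4 rose and 1 fell in F9ΔNLS, according to the authors' deposited table. The nested gene that fell was snoRNA:Psi28S-3436a in an intron of RpL17 (-0.36, DESeq2 adjusted p = 0.029), while RpL17 itself showed a log2 fold change of -0.02 (DESeq2 adjusted p = 0.80) in F9ΔNLS according to the authors' deposited table.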

How the data were processed

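Ovary RNA from 9 libraries was compared between 3 lines. The submitters' processing notes list DESeq2 1.25.10, Salmon 1.3.0, R 3.6.3, DESeq and, as genome build, BDGP6, but not what each was used for. The annotation release and strand setting are not stated there. The mean normalized count is a signal value that the authors made before deposit (counts divided by size factors, by DESeq2's meaning of the header). The log2 fold changes and adjusted p-values are the authors' own, per the file headers, with base 2 assumed. The 9 columns of single libraries carry codes that match no label and were not used, so depth per library is unknown here, and the planned edgeR fit was not made.

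Members were taken by symbol and counted by direction at an adjusted p under 0.05 with pandas 2.3.3. The counting step was tested on simulated data. Members and lists were chosen with earlier results of these data known, though the symbol rule itself reads no measured value. Named genes were those called, paralogs, and the ends of levels and fold changes, plus up to 4 called genes of each list. RpS6, RpL5, RpL11, stalk, ubiquitin fusion, list and neighbour genes outside that rule were named after their values were seen. Of the listed genes Bop1 was not found; larp was matched by spelling, and Rrp1, a DNA repair gene in flies, and Nlp, a nucleoplasmin gene, are not ribosome assembly factors in the narrow sense. eIF6 is in 2 lists. Positions, exon lengths and protein lengths are from Ensembl release 115 (BDGP6.54), where 91 of 92 members matched by identifier and RpS12 by symbol. Sequences were not analysed here. A gene among the members, and what rests on it alone, is not reported here, though it stays in the counts.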

Additional observations from a re-analysis of the deposited data

How the results depend on the processing

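The count of ribosomal protein genes called was 1 in M6stop and 2 in F9ΔNLS, beside 5.52% and 23.4% of all tested genes. The counts did not move with a minimum mean of 50, beside 6.04% and 28.3% of all tested genes at that minimum. They did not move with a log2 fold change of at least 0.1 in size either, beside 5.1% and 23.1% of all tested genes. Without the second gene of each paralog pair and the "-like" genes, the counts were 0 in M6stop and 1 in F9ΔNLS, since RpS5b is left out by construction. The shares of all tested genes beside these 2 counts were again 5.52% and 23.4%. At an adjusted p under 0.01 the F9ΔNLS count was 1, since RpL10Ab (-0.20) no longer passed, beside 14% of all tested genes. At an adjusted p under 0.1 it was 7 (8.05%), of which 3 rose and 4 fell, beside 30.2% of all tested genes. RpS5b passed at each of these thresholds in both lines. The median log2 fold change in M6stop was -0.010 over all members with a value and -0.014 with a mean of at least 50, against -0.013. In F9ΔNLS it was 0.008 over all members with a value, 0.013 without second paralogs and 0.008 with the median of all tested genes subtracted, against 0.012. The set of 214 highly counted genes was chosen after seeing the data. Leaving out replicates was not run, because library columns could not be tied to lines. No paired analysis was possible because the columns of single libraries carry no replicate number.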
